A study of Mus musculus with 9 samples.

Results

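The genes described here are the immunity-related GTPases Irgm1, Irgm2, Igtp, Iigp1, Tgtp1 and Tgtp2 and the Mx genes Mx1 and Mx2, 8 of the 18188 genes listed for each library. They were chosen by symbol and not by a cut on measured values, but with earlier results of these data known. Values of 6 of them were analysed, and 5 (Irgm1, Irgm2, Iigp1, Mx1 and Mx2) passed the filter on low values, which asks for 1 TPM or more in 4 or more libraries (TPM, the transcript share that accounts for gene length and library total). Igtp did not pass it, and Tgtp1 and Tgtp2 were not analysed here. The RNA came from CD8+ T cells of mouse spleens, the killer lymphocytes of the immune system. There were 4 libraries of Rig1 KO cells, which carry a knockout of the gene for the cytosolic RNA sensor RIG-I, and 5 libraries of WT cells. The labels give no strain, age, sex, treatment or time and do not say how the knockout was made. They number the libraries and name no animals, so each p-value reflects the spread of these libraries alone, and that spread could be technical.

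Immunity-related GTPases are proteins that interferons induce in mouse cells and that guard against bacteria and protozoa living inside vacuoles. Those with lysine in the nucleotide-binding loop (the GKS class, here Iigp1, Tgtp1 and Tgtp2) load onto the vacuole membrane and help to break it. Those with methionine in its place (the GMS class, here Irgm1, Irgm2 and Igtp) sit on the cell's own membranes, hold the GKS proteins inactive there and are needed for their correct targeting. In mouse T cells Irgm1 is also known for keeping activated cells alive during responses to interferon-γ. Mx proteins are dynamin-like GTPases that block viruses and depend on type I or type III interferon. RefSeq's mouse assembly of the strain C57BL/6J lists both Mx1 and Mx2 as transcribed pseudogenes, so a transcript level of either gene need not mean a working protein.

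Interferons act on these genes through short DNA elements close to the start of transcription, and the promoters of the GMS genes are shown because Irgm2 and Igtp resemble each other so closely there. The RefSeq promoter table (build GRCm38.p6) matched 5 of the 8 genes by symbol, Irgm1, Irgm2, Igtp, Tgtp1 and Tgtp2, each with a window of 300 bases. The 120 bases before the annotated start are printed 5′ to 3′ on the strand of the gene, at chr11:48871421-48871540 (minus strand) for Irgm1, chr11:58214857-58214976 (plus strand) for Irgm2 and chr11:58199436-58199555 (plus strand) for Igtp. Capitals mark matches of GAAANNGAAA, a core of the interferon-stimulated response element, and of TTCNNNGAA, a core of the gamma-activated site, each searched on both strands.
Irgm1: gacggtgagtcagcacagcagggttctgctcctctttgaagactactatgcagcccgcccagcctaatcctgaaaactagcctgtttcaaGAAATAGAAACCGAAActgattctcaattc
Irgm2: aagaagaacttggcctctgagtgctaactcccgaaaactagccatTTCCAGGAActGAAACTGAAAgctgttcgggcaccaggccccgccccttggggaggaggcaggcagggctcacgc
Igtp: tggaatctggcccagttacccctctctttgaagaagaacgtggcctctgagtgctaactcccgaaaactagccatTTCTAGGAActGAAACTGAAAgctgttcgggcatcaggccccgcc

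All 5 of the matched genes held GAAANNGAAA in the 300-base window, against 3.44% of the 32851 windows in the table, and 4 of the 5 held TTCNNNGAA, against 8.3% of the windows. In Irgm1, which had no TTCNNNGAA match, the pair of GAAANNGAAA matches overlapped each other and ran from position -30 to position -15 relative to the start. In Irgm2 the GAAANNGAAA match lay at positions -64 to -55, and in Igtp at -34 to -25, each behind a TTCNNNGAA match that ended 2 bases before it. The Irgm2 and Igtp windows aligned over 270 positions with 90.4% identity, and those of Tgtp1 and Tgtp2 over 162 positions with 91.4% identity. A match describes the letters in this window and does not show that a factor binds it.

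The libraries held between 15496262 and 17893558 recovered reads. The transcript of the targeted gene, Ddx58, lay between 30.6 and 35.2 TPM in Rig1 KO libraries and between 63.2 and 67.4 TPM in WT libraries. Of 10540 genes tested across the whole table, 4817 changed, which is 45.7%, with 33.5% higher and 12.2% lower in Rig1 KO. The median log2 fold change over all tested genes was 0.13, and 0.01 once libraries were scaled by median ratio. That scaling gave 2491 higher and 2266 lower genes, against 3526 and 1291 with TPM as deposited. CD8 T cell markers (Cd8a and Cd8b1) summed to between 2945 and 3371 TPM in Rig1 KO and between 1922 and 2288 TPM in WT. Markers of other cell types were present in both groups, and none of the markers with values was at 0 in every library. In bulk RNA, fewer cells of a type and less RNA per cell cannot be told apart.

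Among the GMS genes, Irgm1 and Irgm2 separated the groups fully, with all Rig1 KO libraries above all WT libraries. Irgm1 had 135, 121, 165 and 146 TPM in Rig1 KO 1 to 4, against 96.9, 97.1, 103, 102 and 97.9 TPM in WT 1 to 5. The WT libraries lay within a narrow band and the Rig1 KO libraries were spread above it. The means were 142 ± 18.6 TPM in Rig1 KO (SD, n = 4) and 99.4 ± 2.83 TPM in WT (SD, n = 5), a ratio of 1.43. On log2(TPM + 1) the difference was 0.50 (SE 0.079, adjusted p = 0.00052 by limma, Benjamini-Hochberg adjusted across the 10540 genes).

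Irgm2 rose further than its relative. It had 40.1, 34.5, 47.3 and 43.4 TPM in Rig1 KO 1 to 4, against 15.2, 13.7, 15.1, 14.6 and 13.0 TPM in WT 1 to 5. The lowest Rig1 KO library stood well clear of the highest WT library. The means of 41.3 ± 5.41 TPM in Rig1 KO (SD, n = 4) and 14.3 ± 0.942 TPM in WT (SD, n = 5) gave a ratio of 2.89, with a log2 fold change of 1.46 (SE 0.090, limma adjusted p = 7.91e-07). Within a library, the ratio of Irgm2 to Irgm1 was 0.291 ± 0.00585 in Rig1 KO (SD, n = 4) and 0.144 ± 0.00886 in WT (SD, n = 5), without overlap. This ratio does not depend on how libraries are scaled, and the difference between the 2 genes' changes was not tested.

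Igtp, the third GMS gene, was listed at or near 0 in all libraries. It was listed at 0 in Rig1 KO 1, 3 and 4 and at 0.0838 TPM in Rig1 KO 2, and at 0 in WT 1 to 4 and at 0.356 TPM in WT 5. These levels correspond to 1 recovered read in Rig1 KO 2 and 4 reads in WT 5. The GENCODE M21 annotation (GRCm38) gives Irgm2 a span of 23165 bases that begins inside the first exon of Igtp, so that 7974 of the 8036 bases of Igtp, 99.2%, lie within Irgm2 on the same strand. The gene lengths implied by the deposited values were the same 23165 bases for Irgm2 and 8036 bases for Igtp. Of the exon bases, 62 of the 2022 of Igtp (3.07%) and 3528 of the 3690 of Irgm2 (95.6%) lie outside the shared stretch. RefSeq instead gives Irgm2 7807 bases and Igtp 8037 bases. With the RefSeq starts used for the promoters above, those 2 models do not overlap. The counting tool named in the processing notes, featureCounts, by default leaves out reads that fall on more than 1 gene, but the sources used here do not give its setting. Whether reads of Igtp were left out or given to Irgm2 was not tested, so the zeros of Igtp say nothing of its expression.

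**Figure D1:**
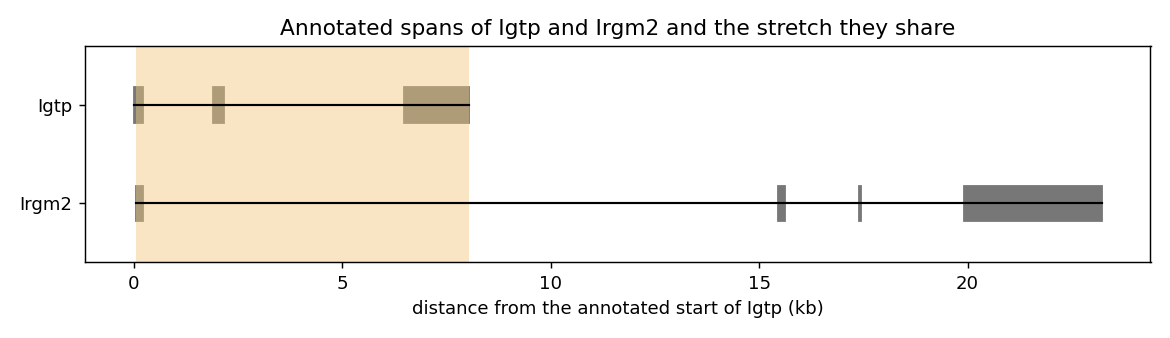
Annotated spans (lines) and exons (boxes) of Igtp and Irgm2 in GENCODE M21, by distance in kb from the start of Igtp, with the shared stretch shaded. All but 62 bases of Igtp lie inside the span of Irgm2, while the longest exon of Irgm2 lies outside the shared stretch.

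Iigp1, an effector of the GKS class, was higher in all Rig1 KO libraries. It had 46.3, 45.4, 69.8 and 53.5 TPM in Rig1 KO 1 to 4, against 16.2, 16.3, 18.5, 22.5 and 15.5 TPM in WT 1 to 5. The groups did not overlap, with Rig1 KO 3 standing above the other Rig1 KO libraries and WT 4 above the other WT libraries. The means were 53.7 ± 11.3 TPM in Rig1 KO (SD, n = 4) and 17.8 ± 2.85 TPM in WT (SD, n = 5). The log2 fold change was 1.53 (SE 0.139, limma adjusted p = 1.30e-05), which ranked 58 among the 10540 tested genes. With macrophage and monocyte markers in the model, and without WT 1 and WT 2, the value for Irgm2 exceeded that for Iigp1. Irgm2 ranked 72, Mx1 144 and Irgm1 1458 on the same scale. The ratio of Iigp1 to Irgm2 within a library overlapped between the groups, at 1.295 ± 0.137 in Rig1 KO (SD, n = 4) and 1.243 ± 0.180 in WT (SD, n = 5).

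The Mx genes differed from each other. Mx1 had 65.7, 58.4, 89.9 and 70.9 TPM in Rig1 KO 1 to 4, against 29.0, 28.1, 26.2, 38.4 and 31.2 TPM in WT 1 to 5. Every Rig1 KO library exceeded every WT library, and the log2 fold change was 1.19 (SE 0.132, limma adjusted p = 5.19e-05). The means were 71.3 ± 13.5 TPM in Rig1 KO (SD, n = 4) and 30.6 ± 4.73 TPM in WT (SD, n = 5), a ratio of 2.33.

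Mx2, which lies beside Mx1 on chromosome 16, did not pass the test. It had 5.999, 5.50, 8.55 and 7.28 TPM in Rig1 KO 1 to 4, against 6.78, 6.08, 5.85, 7.26 and 5.92 TPM in WT 1 to 5. The groups overlapped, with the lowest and the highest library both in Rig1 KO. The log2 fold change was 0.07 with a 95% interval from -0.19 to 0.33 (limma adjusted p = 0.632), and its sign turned to -0.035 after median ratio scaling, -0.067 after quantile normalization and -0.027 without Rig1 KO 3. Between 209 and 281 reads per Rig1 KO library and between 212 and 300 reads per WT library stood behind these values. Within a library the ratio of Mx1 to Mx2 was 11.0, 10.6, 10.5 and 9.75 in Rig1 KO 1 to 4, against 4.27, 4.62, 4.48, 5.29 and 5.27 in WT 1 to 5. The ratio was thus higher in each Rig1 KO library, and no test of it was made.

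**Figure D2:**
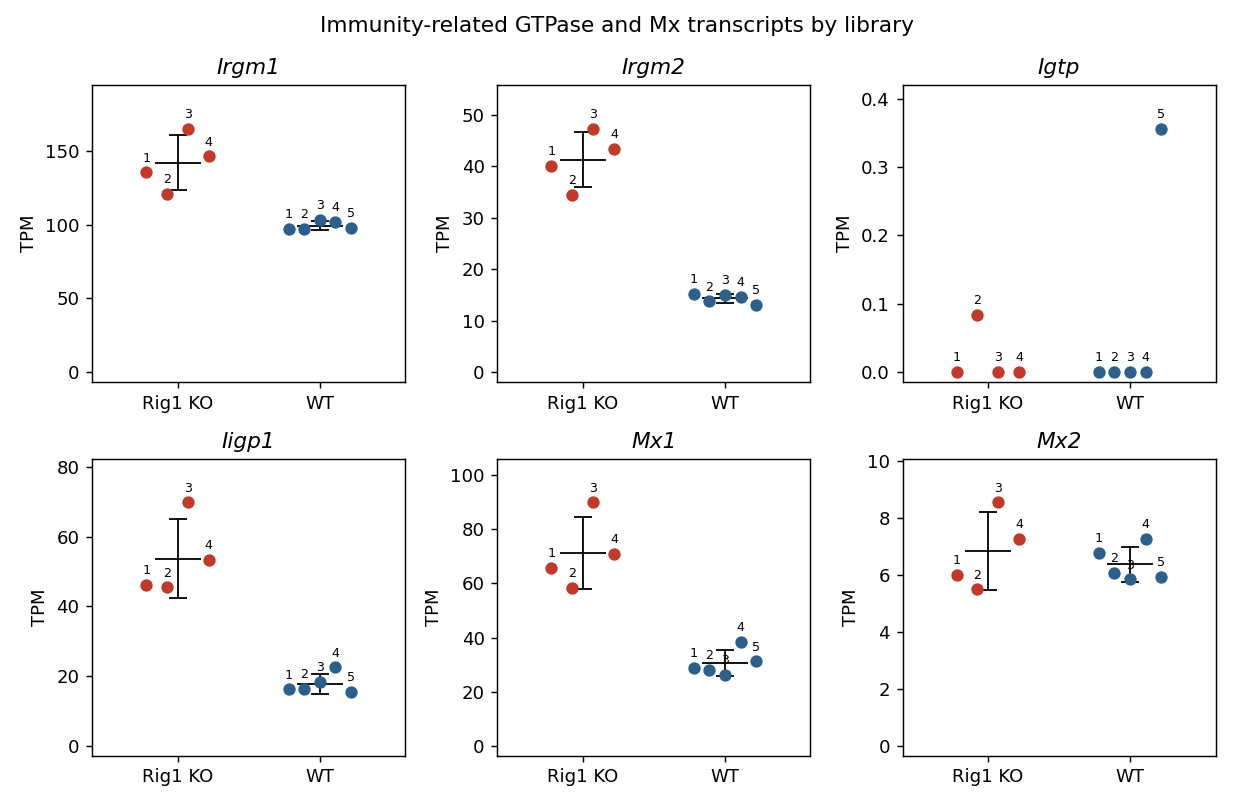
Levels in TPM of the 6 genes with values, 1 panel per gene, for the 4 Rig1 KO libraries and the 5 WT libraries. Points are libraries, labelled with their number, and bars show the mean and SD (not drawn for Igtp, which was at 0 in 7 libraries). Irgm1, Irgm2, Iigp1 and Mx1 do not overlap between the groups, whereas Mx2 does.

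By count, 4 of the 5 tested genes were higher in Rig1 KO, 0 were lower and 1 did not pass, beside a background of 33.5% of all tested genes higher. The same 4 did not overlap between the groups, where 38.1% of all tested genes did not overlap, 28.0% with Rig1 KO higher and 10.1% with Rig1 KO lower. Each of the 4 gave p = 0.00794 in an exact two-sided permutation test of its TPM values, the smallest that the 126 splits of 9 libraries into 4 and 5 allow. For Mx2 the exact test gave p = 0.548. A log2 fold change of at least 1 with an adjusted p under 0.05, as seen for Irgm2, Iigp1 and Mx1, was reached by 2.37% of all tested genes. The 4 genes were called higher under all 23 alternatives, with log2 fold changes from 0.38 to 0.58 for Irgm1, 1.33 to 1.54 for Irgm2, 1.40 to 1.64 for Iigp1 and 1.07 to 1.52 for Mx1.

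The Rig1 KO libraries kept the same extremes across these genes. Rig1 KO 3 was the highest and Rig1 KO 2 the lowest Rig1 KO library for all 5 tested genes, both in TPM and after median ratio scaling. Over all tested genes this order was seen in 26.3% with TPM and in 14.6% after that scaling. Among the 20 tested genes of the list of other type I interferon-induced antiviral genes it was seen in 16 with TPM and in 14 after scaling, and among the 6 tested guanylate-binding protein genes in 5 and in 4. In WT, WT 4 was the highest library for 3 of the 5 genes. The scaling factors by median ratio ran from 1.00 in Rig1 KO 2 to 1.12 in Rig1 KO 3 and from 0.925 to 0.997 in WT.

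The spread between libraries was set beside the counting noise that the recovered reads would give. For Irgm1 the coefficient of variation was 13.1% in Rig1 KO and 2.85% in WT, where counting noise alone gives 2.27% and 2.63%. After median ratio scaling it was 8.31% in Rig1 KO and 2.82% in WT. For Iigp1 it was 21% in Rig1 KO and 16% in WT, with counting noise of 2.83% and 4.74%. For Mx1 it was 18.9% in Rig1 KO and 15.5% in WT.

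The deposited values divide reads by the whole span of a gene, introns included, so levels of different genes were compared after dividing by exon length instead. On this scale the order in every Rig1 KO library was Mx1, Irgm2, Irgm1, Iigp1 and Mx2. The means there were 107 ± 17.9 TPM for Mx1, 93.0 ± 10.2 TPM for Irgm2, 85.1 ± 9.24 TPM for Irgm1, 54.9 ± 10.4 TPM for Iigp1 and 17.3 ± 3.08 TPM for Mx2 (SD, n = 4). In WT Irgm1 came first in every library, with 61.3 ± 1.68 TPM, ahead of Mx1 with 47.2 ± 6.99 TPM and Irgm2 with 33.2 ± 2.28 TPM (SD, n = 5). Iigp1 (18.7 ± 2.93 TPM) and Mx2 (16.7 ± 1.57 TPM) were lowest in WT and overlapped. In Rig1 KO the ranges of Mx1, Irgm2 and Irgm1 overlapped between neighbours, although the order was the same in each library. With TPM as deposited, Irgm1 had the highest mean in both groups, at 142 TPM in Rig1 KO and 99.4 TPM in WT. The sources used here do not say whether reads in introns were counted. Exon-length levels would overstate genes with many such reads, so the order of genes depends on the length used. The exon-length level of Irgm2 carries the shared stretch with Igtp as a further uncertainty.

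Cell type markers were examined as whole lists, of which some were higher and others lower in Rig1 KO. Macrophage and monocyte markers, whose cells carry immunity-related GTPases, summed to between 1636 and 1881 TPM in Rig1 KO, against 807, 978, 1539, 1586 and 1789 TPM in WT 1 to 5, with 2 of 11 called higher and none at 0. Compared with WT 3, 4 and 5 only, the WT libraries closest to Rig1 KO in these markers, the log2 fold changes were 0.48 for Irgm1, 1.47 for Irgm2, 1.46 for Iigp1 and 1.13 for Mx1, and all 4 passed. Adding the mean level of these markers to the model gave 0.48, 1.49, 1.45 and 1.13, in the same order. B cell markers summed to between 91.7 and 195 TPM in Rig1 KO and between 161 and 1130 TPM in WT, with 6 of 7 lower, and with their mean as a covariate the 4 genes passed at 0.58, 1.43, 1.64 and 1.52. Natural killer cell markers (431 to 481 TPM in Rig1 KO and 149 to 193 TPM in WT, 5 of 6 higher) and basophil and mast cell markers (221 to 422 TPM in Rig1 KO and 15.0 to 58.4 TPM in WT, 6 of 6 higher) did not overlap, nor did platelet markers (31.2 to 39.3 TPM in Rig1 KO and 180 to 242 TPM in WT, 4 of 4 lower). T cell markers summed to 1706 to 1845 TPM in Rig1 KO and 1357 to 1566 TPM in WT, without overlap, with 5 of 6 higher. Stroma and endothelium markers summed to 24.3 to 25.8 TPM in Rig1 KO and 28.8 to 33.3 TPM in WT, without overlap, with 2 of 2 lower. Erythroid markers summed to 175 to 318 TPM in Rig1 KO and 73.8 to 197 TPM in WT, with overlap and 3 of 4 higher. Sums of neutrophil (2 of 7 higher and 2 lower), dendritic cell (1 of 6 higher) and CD4 T cell markers (none called) overlapped as well. The part of these cell types in the levels of the GTPase genes was not tested.

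Other loci of the immunity-related GTPase family were higher or did not pass. Of 6 with values, 3 rose (Gm12185, Gm4841 and Gm4951), 0 fell and 3 did not pass (Gm5431, Irgc1 and Irgq), with a median log2 fold change of 0.33, where 33.5% of all tested genes were higher with a median of 0.13. Gm4841 and Gm4951 could pass the filter on low values through the Rig1 KO libraries alone. Irgc1 had a log2 fold change of -0.28 (limma adjusted p = 0.0761), and it passed downward after median ratio scaling (0.0359), without the mean-variance trend (0.0449), without WT 4 (0.0471) and without WT 4 and WT 5 (0.0425). Gm12185 averaged 44.1 ± 8.06 TPM in Rig1 KO (SD, n = 4) and 31.0 ± 1.75 TPM in WT (SD, n = 5), with a log2 fold change of 0.48 (limma adjusted p = 0.0049, and 0.0653 with B cell markers in the model). Its annotated span of 87571 bases covers 6900 of the 8846 bases of Tgtp1 on the same strand. On that strand it also shares 33249 bases (38.0% of its span) with 9930111J21Rik1 and 837 bases with Psme2b. Its reads could therefore include reads of any of these genes, and which they were was not tested. Gm4841 rose by 1.36 on the log2 scale from very few reads (11 to 27 per Rig1 KO library and 1 to 7 per WT library). Gm4951 had a log2 fold change of 0.53 (limma adjusted p = 0.0252), which did not pass without WT 1 (0.052), WT 2 (0.0532), Rig1 KO 1 (0.0528) or Rig1 KO 3 (0.0795), without both WT 1 and WT 2 (0.122), or with macrophage and monocyte markers in the model (0.124).

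The guanylate-binding proteins, which act with the immunity-related GTPases on pathogen vacuoles, were higher in Rig1 KO for most of the genes tested. Of 6 tested, 5 rose, 0 fell and Gbp11 did not pass (log2 fold change 0.16, limma adjusted p = 0.189), with a median log2 fold change of 0.46, against 0.13 over all tested genes. Beside this count, 33.5% of all tested genes were higher and 12.2% lower in Rig1 KO. Gbp7 averaged 135 ± 24.2 TPM in Rig1 KO (SD, n = 4) and 74.8 ± 6.66 TPM in WT (SD, n = 5), a log2 fold change of 0.83. Gbp3 and Gbp5 changed by 0.59 and 0.57 and Gbp8 by 0.36. With B cell markers in the model 3 of them passed.

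**Figure D3:**
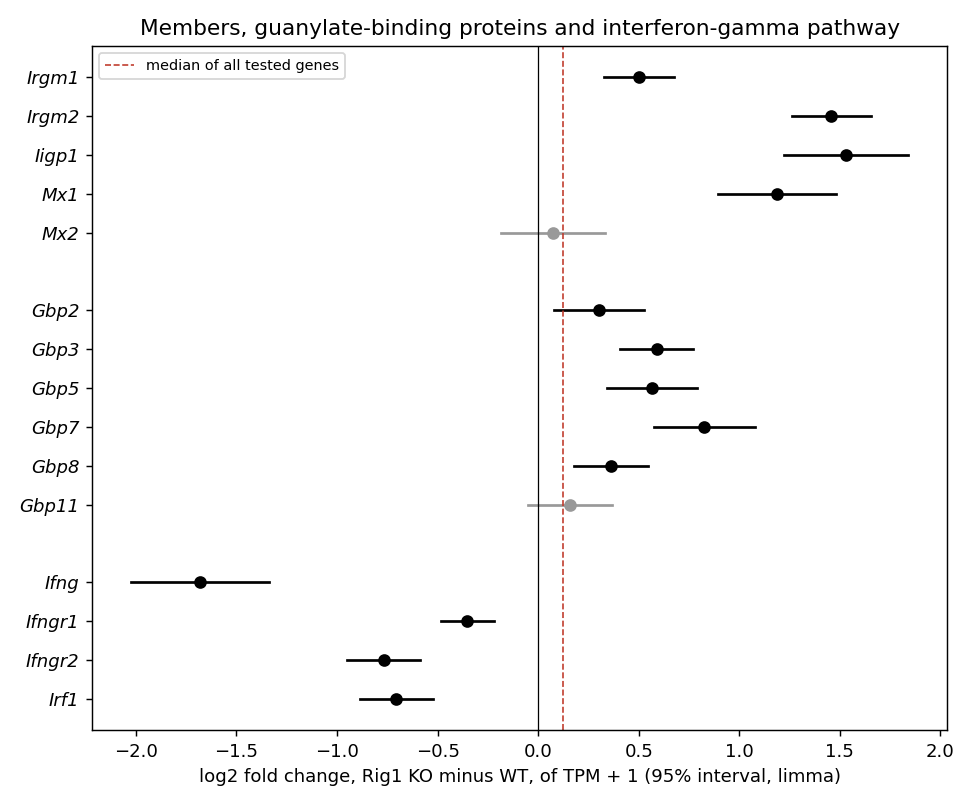
Log2 fold changes (Rig1 KO minus WT, on log2(TPM + 1)) with 95% intervals from limma, for the 5 tested immunity-related GTPase and Mx genes, the 6 tested guanylate-binding protein genes and 4 genes of the interferon-γ pathway. Black marks an adjusted p under 0.05, grey the rest, and the dashed line is the median of all tested genes (0.13). Irgm2, Iigp1 and Mx1 lie furthest to the right, and Ifng, Ifngr1, Ifngr2 and Irf1 lie left of 0.

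Interferon-γ and its receptor were lower in the same libraries. Ifng, the main inducer of immunity-related GTPases, averaged 21.4 ± 5.13 TPM in Rig1 KO (SD, n = 4) and 70.2 ± 11.4 TPM in WT (SD, n = 5), with a log2 fold change of -1.68 (SE 0.155, limma adjusted p = 1.47e-05). The receptor chain genes Ifngr1 and Ifngr2 fell by 0.35 and 0.77 on the log2 scale, and Irf1, a transcription factor that interferon-γ induces, fell by 0.70. Of the 15 tested genes for interferon receptors, kinases and transcription factors, 6 rose (among them Ifnar1, Ifnar2 and Jak1), 3 fell and 6 did not pass, with a median of 0.17. Shares over all tested genes were 33.5% higher and 12.2% lower, with a median of 0.13. After median ratio scaling 4 of the 15 rose and 4 fell. Interferon protein and signalling were not measured.

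The 7 tested inhibitors of interferon signalling had a median of 0.10, against 0.13 over all tested genes. Usp18 and Ptpn6 rose, Socs3 fell and 4 did not pass, where 33.5% of all tested genes were higher and 12.2% lower. Usp18, which shuts off the type I interferon receptor and is itself induced by interferon, averaged 10.9 ± 2.35 TPM in Rig1 KO (SD, n = 4) and 3.35 ± 0.714 TPM in WT (SD, n = 5), a log2 fold change of 1.45. Ptpn6 did not pass after median ratio scaling (limma adjusted p = 0.0557) or without WT 1 and WT 2 (0.0539). Socs1, which restrains interferon-γ signalling, had a log2 fold change of -0.27 (limma adjusted p = 0.0676), and it passed downward after median ratio scaling (0.0237), after quantile normalization (0.0172) and without WT 3 (0.012).

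Genes that share an interferon response with the GTPases rose in part. Beside them, 33.5% of all tested genes were higher and 12.2% lower, with a median log2 fold change of 0.13. Among other type I interferon-induced antiviral genes 20 were tested, of which 13 rose, 0 fell and 7 did not pass. Their median was 0.36. Without Rig1 KO 1 a single gene fell, and without WT 1 and WT 2 the number that rose was 8. Ifit1, which binds viral RNA caps, and Oas1a, which makes the activator of RNase L, changed by 0.99 and 1.01 on the log2 scale. Of 9 tested genes that interferon-γ is known to induce, 5 rose (Psmb8, Psmb9, Tap1, Tap2 and Tapbp, all in antigen processing), 0 fell and 4 did not pass, with a median of 0.31. After median ratio scaling 4 rose and 1 fell, and 1 also fell after quantile normalization, with exon lengths and without Rig1 KO 3. Psmb9, a subunit of the immunoproteasome, changed by 0.70. The dynamin relatives of Mx without a known interferon response gave 1 higher (Atl3) and 1 lower (Atl2) among 7 tested, with a median of 0.10, and 2 lower after median ratio scaling.

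The machinery that places immunity-related GTPases on vacuoles was described as 1 list. Mouse GKS proteins need the conjugation of ATG8 proteins by Atg3, Atg5, Atg7, Atg12 and Atg16l1 to reach their targets. Over all tested genes 33.5% were higher and 12.2% lower. Of 13 tested genes of this machinery and of autophagy, 1 rose (Gabarapl2), 5 fell (Atg12, Atg16l1, Map1lc3a, Map1lc3b and Gabarapl1) and 7 did not pass, with a median of -0.14, and under median ratio scaling the counts were 0 higher and 8 lower. The rise of Gabarapl2 was lost under 8 alternatives, among them the fits without Rig1 KO 1, Rig1 KO 4 or WT 3. The fall of Atg16l1 did not pass with B cell markers in the model (limma adjusted p = 0.195), where 3 genes of the list fell. Map1lc3b, which encodes a form of the autophagosome protein LC3, averaged 119 ± 10.7 TPM in Rig1 KO (SD, n = 4) and 242 ± 17.2 TPM in WT (SD, n = 5), a log2 fold change of -1.02 (SE 0.072, limma adjusted p = 2.09e-06). Atg3, Atg5 and Atg7 had log2 fold changes of -0.14, -0.07 and 0.03 and did not pass.

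**Figure D4:**
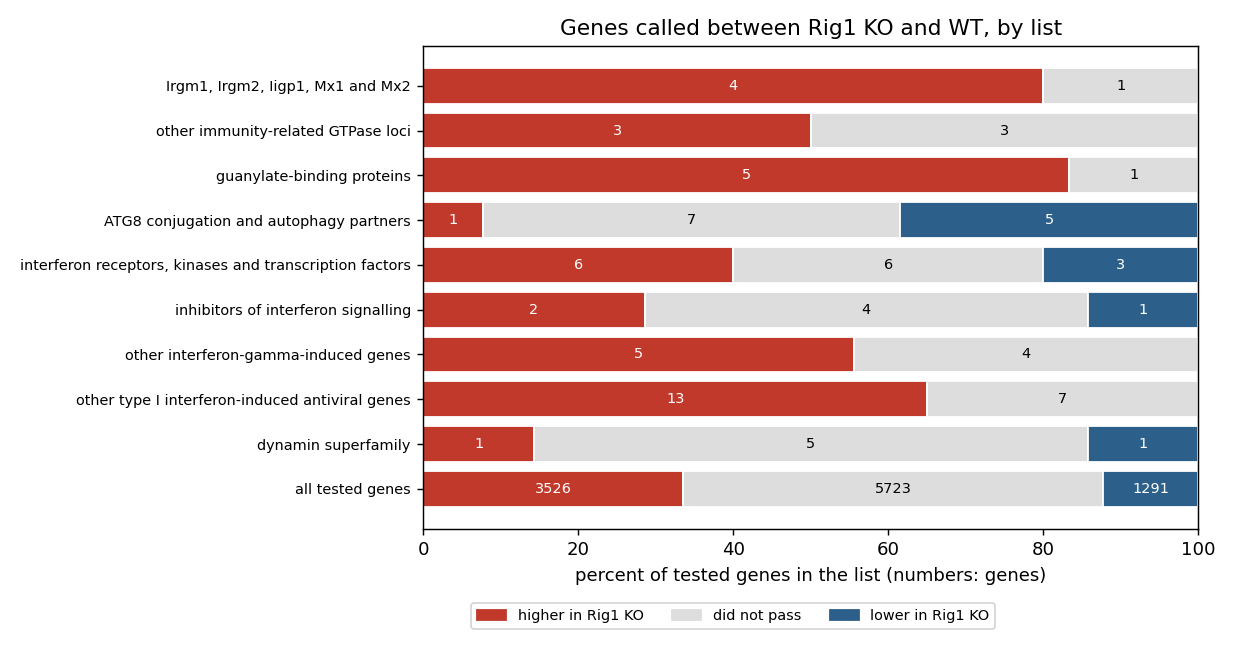
Percent of the tested genes of each list that were higher in Rig1 KO, did not pass or were lower (limma, adjusted p under 0.05), with gene numbers in the bars and all tested genes in the lowest bar. Of the 5 tested immunity-related GTPase and Mx genes 4 were higher, as were 5 of 6 guanylate-binding protein genes, against 33.5% of all tested genes.

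The genes whose profiles over the 9 libraries lay nearest to the mean profile of the 5 tested genes came from none of the interferon lists. Likeness was measured as the root mean square difference of log2(TPM + 1), each gene centred on its own mean, with smaller values more alike. The nearest were Ccng1, which encodes cyclin G1 (0.0493), G2e3, a ubiquitin ligase gene (0.0604), Klhl9, an adaptor of cullin ubiquitin ligases (0.072), Zfp595 (0.0834) and Rbm12b2 (0.0924). Mx1 itself stood at 0.151 and Mx2 at 0.438 from the same mean. Among pairs of the 5 genes, Irgm2 and Iigp1 were the most alike (0.156) and Iigp1 and Mx2 the least alike (0.734). The measure reflects the size of the difference between the groups as much as the pattern among libraries.

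**Figure D5:**
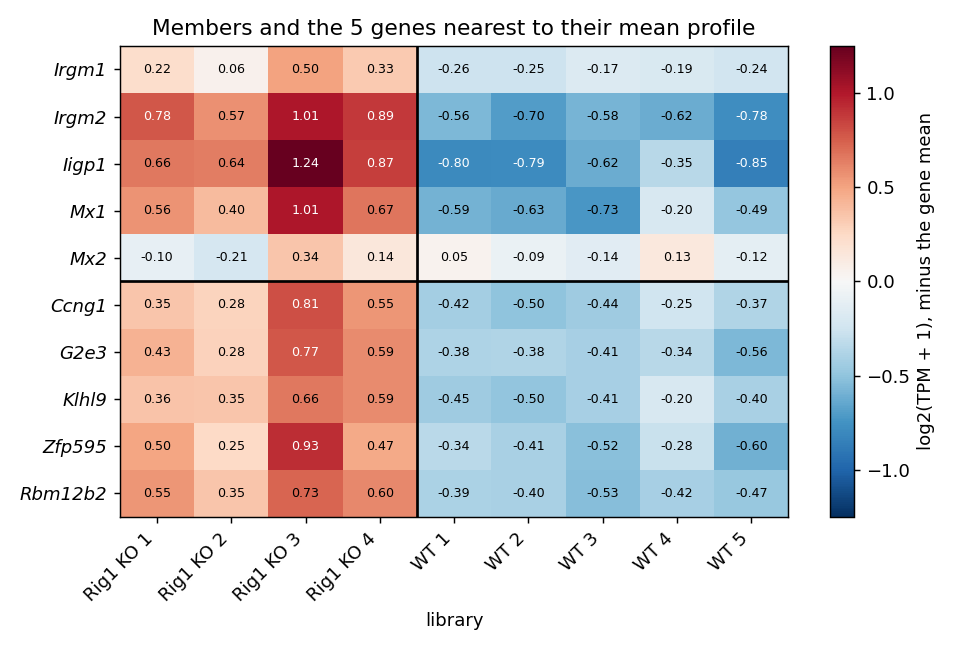
Log2(TPM + 1) minus the mean of each gene over the 9 libraries, for the 5 tested immunity-related GTPase and Mx genes (upper rows) and the 5 genes nearest to their mean profile (lower rows), with Rig1 KO libraries left of the line and WT libraries right of it. Rig1 KO 3 holds the highest value in every row, and Mx2 shows no separation of the groups. The lower rows were chosen for likeness to the mean profile, so their high value in Rig1 KO 3 follows from that choice. Among the Rig1 KO libraries, Rig1 KO 3 was the highest for 47.0% of all tested genes.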

How the data were processed

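The deposited values are TPM, made by the authors and named in the file headers, with 1 file per library. The submitters' processing notes name fastp, featureCounts and the build GRCm39 (mm39). The sources used here give no versions, aligner, annotation release or gene lengths. Reads and gene lengths were recovered from the ratios of TPM values between libraries as the smallest whole numbers within a relative tolerance of 2e-12, which succeeded for 100% of genes. Reads with a common divisor come out too low. The implied lengths lay within 1% of the gene span of GENCODE M21 for 99.0% of 12794 genes with enough reads. M21 and RefSeq are on GRCm38, so they served for names, lengths, overlaps and promoter letters. For exon-length levels the reads were divided by M21 exon length.

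The test covered genes that reached 1 TPM in 4 or more libraries and used log2(TPM + 1) of all 9 libraries, with limma 3.58.1 in R 4.3.3 (mean-variance trend, no covariates, two-sided, Benjamini-Hochberg over 10540 genes, threshold 0.05). Fold changes are Rig1 KO minus WT and understate low genes. The fit was tested on simulated data. The 8 genes, the lists and the rules were chosen with earlier results of these data known. The rule named the 8 genes, Ddx58, up to 4 genes per list with the smallest p and the 5 nearest profiles. Other genes were named after their values were seen, to spell out counts. Symbols without a row were not analysed. Alternatives were other pseudocounts, filters, scalings, lengths, covariates and sets of libraries. The comparison without WT 1 and WT 2 was added after seeing the data.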

Additional observations from a re-analysis of the deposited data

Results flagged for a closer look

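Of 90 groups of library values examined (each gene named by the rule, in Rig1 KO and in WT), 5 held a library far from the others of its group. The rule flags about 1 in 20 groups of independent, normally distributed values. These genes share the same libraries, so the number flagged cannot be set against chance. Igtp stood at 0.0838 TPM in Rig1 KO 2 and at 0.356 TPM in WT 5, and was listed at 0 in the other libraries of either group. With all others at 0, any single value above 0 is flagged by this rule. Usp18 was at 14.4 TPM in Rig1 KO 3, a gap of 0.836 of the range of that group above the next library, and the lowest stood at 9.18 TPM. Klhl9 was at 178 TPM in WT 4, with the other WT libraries between 144 and 154 TPM. Map1lc3b was at 272 TPM in WT 1, with the other WT libraries between 231 and 236 TPM.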

How the results depend on the processing

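Irgm1, Irgm2, Iigp1 and Mx1 stayed higher and past the threshold under all 23 alternatives, and Mx2 passed under none. With Mx2 the sign reversed after median ratio scaling (-0.035), quantile normalization (-0.067) and without Rig1 KO 3 (-0.027), and leaving out each library in turn gave -0.03 to 0.16. The cause was not tested. Changed genes numbered 4817, or 2898 once B cell markers entered the model (2278 higher and 620 lower, against 3526 and 1291). Without that covariate, 2266 were lower after median ratio scaling and 2195 after quantile normalization. Leaving out each library gave 4036 to 4813 changed genes.

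The replicate numbers of the titles were also fitted as a replicate block. Deviations of same-numbered libraries correlated at 0.0972, -0.0601, -0.0996 and -0.0724 for numbers 1 to 4, and those of unlike numbers at -0.162 to 0.152. Such values cannot show whether the numbers pair the samples, and the labels do not say. With the block 4777 genes changed, and the log2 fold changes were 0.50, 1.43, 1.49, 1.1995 and 0.05 for Irgm1, Irgm2, Iigp1, Mx1 and Mx2.

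Counts over lists that moved by more than 1.5 times, beyond those given with each list, were as follows. Lower genes among other immunity-related GTPase loci numbered 1 rather than 0 under 4 alternatives named for Irgc1, and higher ones 1 rather than 3 with a mean TPM of at least 5. In the autophagy list 0 rather than 1 rose under 8 alternatives. Genes of that list that fell numbered 3 rather than 5 with the B cell covariate and 8 after quantile normalization. For inhibitors of interferon signalling 1 rather than 2 rose after median ratio scaling and without WT 1 and WT 2, and 2 rather than 1 fell after median ratio scaling, quantile normalization and without WT 3. Dynamin relatives that fell numbered 2 rather than 1 after quantile normalization and with no filter. Gm4841 rests on 11 to 27 reads per Rig1 KO library and 1 to 7 per WT library.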

Other observations

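Across the whole table, 342 tested genes, Irgm1 and Irgm2 among them, had a RefSeq promoter window with GAAANNGAAA on either strand. Of these, 139 (40.6%) were higher and 32 (9.36%) lower in Rig1 KO. Among the 8153 tested genes whose windows lack it, 33.1% were higher and 12.1% lower. The median log2 fold change was 0.21 with the element and 0.12 without. For TTCNNNGAA, 36.9% of 705 genes with the element were higher, against 33.1% of 7790 genes without it. These shares are descriptions of the letters in 300-base windows, with no test.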
